A study of Mus musculus with 4 samples.

Results

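Cholesterol synthesis was described here through 7 enzyme genes, Hmgcs1, Idi1, Fdft1, Sqle, Lss, Cyp51 and Dhcr7, of 19938 mouse genes that had a probe set with a single gene symbol on the array. They were chosen by name, with earlier results of these data known. Of several such probe sets for a gene, the brightest on average was taken. The arrays held total RNA, 1 array each, from 4 tissues: the whole cerebellum of a wild-type mouse (2 months old), a medulloblastoma from a Math1-Cre;SmoM2 animal 1 month old (the younger SmoM2 tumour), another from one 2 months old (the older SmoM2 tumour), and a medulloblastoma from a PtchLacZ/+ animal 5 months old. Medulloblastomas are cerebellar tumours, and all mice had a mixed background of C57BL/6 and C3H. In Math1-Cre;SmoM2 mice a Cre recombinase under Math1 (Atoh1) control switches on SmoM2, an active form of the Hedgehog transducer Smoothened, in the granule neuron lineage, while PtchLacZ/+ mice carry a lacZ allele of the Hedgehog receptor gene Ptch1 in every cell. The labels do not say that the wild-type mouse carried any allele of these models. They give no number of animals for each array. The tumours differ in genotype or age, so the spread behind the p-values mixes both with differences between tumours and technical ones. The p-values speak only to the spread among these arrays, with each gene's spread drawn by limma toward that of all genes.

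Cells build cholesterol from acetyl-CoA. The mevalonate steps, of which HMG-CoA synthase (Hmgcs1) is an early one, give an isoprene unit that isopentenyl diphosphate isomerase (Idi1) makes ready for chain building. Squalene synthase (Fdft1) joins 2 chains into squalene, squalene epoxidase (Sqle) adds an oxygen, and lanosterol synthase (Lss) closes the rings. Lanosterol demethylase (Cyp51) and a series of later enzymes, with 7-dehydrocholesterol reductase (Dhcr7) at the last step, finish the molecule. When sterols are scarce, the membrane-bound factors SREBP-1 and SREBP-2 (Srebf1, Srebf2) are escorted by Scap to be cleaved, and they then turn on these genes, while the Insig proteins hold them back. The brain makes its own cholesterol, much of it in oligodendrocytes and astrocytes, and Hedgehog signalling uses sterols both on its ligand and at Smoothened.

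Promoters of the pathway are known to carry sites that act together in the sterol response, so the 150 bases before the start of transcription are shown for the 4 genes with a single RefSeq window (assembly GRCm38.p6). Capitals mark matches to the sterol regulatory element TCACNCCAC, the CCAAT box CCAAT and the GC box GGGCGG on either strand (ATTGG and CCGCCC are the last 2 read on the other strand), and none of these matches overlap. Each is written in the direction of the gene.
Hmgcs1, chr13:119690201-119690350, plus strand: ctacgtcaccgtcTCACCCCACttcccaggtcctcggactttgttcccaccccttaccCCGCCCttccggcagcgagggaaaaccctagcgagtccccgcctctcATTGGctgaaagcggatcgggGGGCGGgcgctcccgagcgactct
Idi1, chr13:8885456-8885605, plus strand: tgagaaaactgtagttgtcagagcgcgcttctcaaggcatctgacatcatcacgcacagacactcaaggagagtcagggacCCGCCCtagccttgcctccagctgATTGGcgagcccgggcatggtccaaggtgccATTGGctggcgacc
Lss, chr10:76531455-76531604, plus strand: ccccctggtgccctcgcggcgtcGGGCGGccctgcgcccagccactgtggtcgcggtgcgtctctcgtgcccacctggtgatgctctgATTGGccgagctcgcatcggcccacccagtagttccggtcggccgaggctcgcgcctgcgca
Cyp51, chr5:4104698-4104847, minus strand: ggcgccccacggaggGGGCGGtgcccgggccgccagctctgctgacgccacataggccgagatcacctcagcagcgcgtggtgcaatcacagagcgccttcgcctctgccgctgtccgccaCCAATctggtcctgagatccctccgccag

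Searched over the 250 bases before each start, Hmgcs1 held the sterol regulatory element, 137 to 129 bases before its start, which 1.05% of all 32851 RefSeq windows of that length also held. The 7 windows of the 5 matched genes, 3 of them for Dhcr7, had no other match to it. A CCAAT box lay in 5 of these 7 windows, at least 1 for each of the 5 genes, against 33.8% of all windows. A GC box lay in 6 of 7 against 32.7%. Over the 19 windows of a wider list of synthesis genes, these 7 windows included, the shares were 78.9% and 84.2%, so neither is particular to the 7. In Hmgcs1 and Idi1 an inverted CCAAT box (ATTGG) stood at the same distance, 45 to 41 bases before the start. It stood at 62 to 58 bases in Lss and at 49 to 45 bases in a window of Dhcr7. Hmgcs1 and Idi1 also held inverted boxes at other distances, and the box of Cyp51 was not inverted (29 to 25 bases). Whether the distances are alike beyond coincidence was not tested. These are letter matches in short windows, not sites shown to be bound, and a window without a match says nothing of the factor.

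The 3 tumours were compared with the cerebellum to ask whether Hedgehog-driven tumours carry the transcripts of cholesterol synthesis at another level than the adult tissue. None of the 7 genes passed the test (limma, adjusted p under 0.05 over all genes), where 16.0% of all genes did, and none had an unadjusted p under 0.05, where 29.7% of all genes did. The mean log2 level over the 7 genes was 8.69 in the cerebellum, 8.69 in both SmoM2 tumours and 8.58 in the PtchLacZ/+ tumour. Genes on opposite sides offset each other in these means, among them Hmgcs1 (-0.40) and Idi1 (-0.31) against Sqle (0.46). Their median difference between tumours and cerebellum was -0.07 on the log2 scale, beside 0.04 over all genes. The median size of the difference, without its sign, was 0.13 for the 7 genes, 0.30 over all genes and 0.54 over the genes above the median level, among which all 7 lie. In such bulk tissue, fewer cells of a type and less RNA per cell cannot be told apart.

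**Figure D1:**
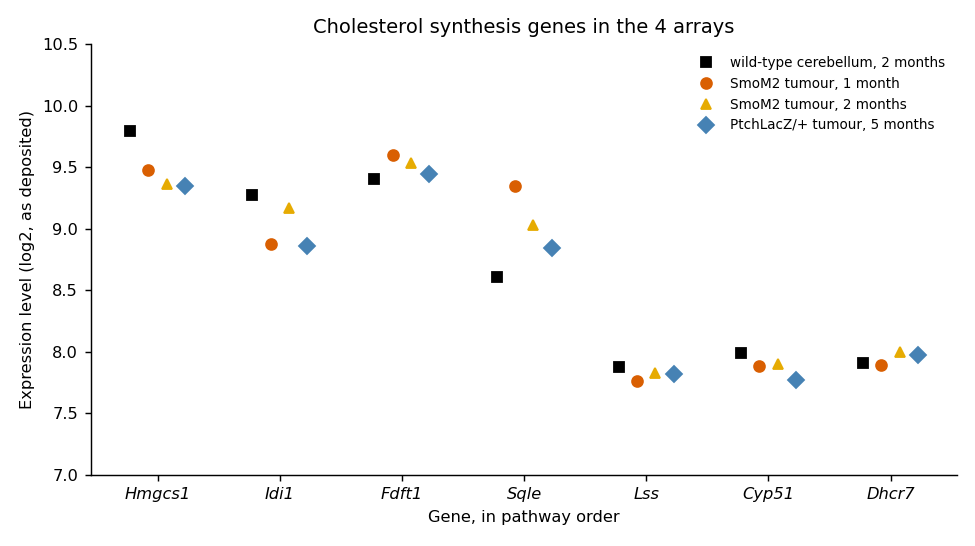
Log2 level as deposited (vertical axis) of the 7 cholesterol synthesis genes (horizontal axis, in pathway order) in the 4 arrays, each point 1 array. The cerebellum (black squares) sits above all tumours for Hmgcs1 and Idi1 and below them for Sqle, while Lss and Dhcr7 span under 0.11 over the 4 arrays; levels of different genes are not comparable.

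Hmgcs1, the mevalonate step at the head of the set, was at a log2 level of 9.80 in the cerebellum, 9.48 in the younger and 9.36 in the older SmoM2 tumour, and 9.35 in the PtchLacZ/+ one. All 3 tumours lay below the cerebellum, and they lay within 0.13 of each other. The mean log2 difference was -0.40 ± 0.17 (limma's SE, here and below after ±), or 0.757-fold with a 95% interval of 0.558 to 1.03, and did not pass (adjusted p = 0.202). Idi1 was at 9.27 in the cerebellum, 8.87 in the younger and 9.17 in the older SmoM2 tumour, and 8.86 in the PtchLacZ/+ one. The older SmoM2 tumour was thus near the cerebellum and the other tumours were lower. The Idi1 difference was -0.31 ± 0.21 (adjusted p = 0.425).

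Idi1 was read by 2 probe sets with that single symbol, and whether the one used lies at the gene was not determined. RefSeq places Idi1 on chromosome 13, while the 10 probe sets with the nearest identifiers to the one used all belong to genes of chromosome 2. The 10 nearest to the other Idi1 probe set belong to chromosome 13. That other probe set read 8.90 in the cerebellum, 8.56 in the younger and 8.90 in the older SmoM2 tumour, and 8.53 in the PtchLacZ/+ one, the same order of tumours, with a difference of -0.24 ± 0.22 (adjusted p = 0.576).

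The genes of the squalene enzymes were above the cerebellum in every tumour, though neither difference passed. Sqle, a rate-limiting enzyme of the sterol branch, was at 8.61 in the cerebellum, 9.35 in the younger and 9.03 in the older SmoM2 tumour, and 8.85 in the PtchLacZ/+ one. Each tumour was above the cerebellum, but the tumours themselves differed by up to 0.50. The difference of their mean from the cerebellum was 0.46 ± 0.25, or 1.38-fold with a 95% interval of 0.889 to 2.14, and did not pass (adjusted p = 0.301). Fdft1 was at 9.40 in the cerebellum, 9.60 in the younger and 9.53 in the older SmoM2 tumour, and 9.44 in the PtchLacZ/+ one, a difference of 0.12 ± 0.17 (adjusted p = 0.730). A second Fdft1 probe set read 8.92, 9.11, 9.20 and 9.02 in the same order of arrays.

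Lss and Dhcr7 were the flattest of the set. Lss was at 7.87 in the cerebellum, 7.77 in the younger and 7.82 in the older SmoM2 tumour, and 7.82 in the PtchLacZ/+ one. Dhcr7, the last step, was at 7.91, 7.89, 8.00 and 7.97 in the same order, so that the cerebellum fell within the tumours. Over the 4 arrays the range was 0.11 for each, and 0.642% and 0.602% of the genes above the median level had a smaller range than Lss and Dhcr7. Cyp51 was at 7.99 in the cerebellum, 7.89 in the younger and 7.90 in the older SmoM2 tumour, and 7.77 in the PtchLacZ/+ one, all below the cerebellum by at most 0.21. The differences were -0.07 ± 0.16 for Lss, -0.13 ± 0.17 for Cyp51 and 0.05 ± 0.17 for Dhcr7, with adjusted p = 0.844, 0.701 and 0.902.

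The cerebellum stood outside the range of the 3 tumours for 6 of the 7 genes, above it for 4 and below it for 2. Over all genes it stood outside in 70.1%, above in 32.0% and below in 38.1%, and nothing particular to the 7 genes is read from the count. In the PtchLacZ/+ tumour and in the older SmoM2 tumour all 7 genes lay within 0.5 log2 units of the cerebellum, and in the younger SmoM2 tumour 6 did, Sqle being the exception. Among genes above the median level the share within 0.5 was 45.7%, 42.7% and 47.4% in these tumours. For 6 of the 7 genes the 95% interval of the difference lay inside a 2-fold change in either direction, against 36.3% of the genes above the median level, and Sqle exceeded it on the upper side. These intervals rest on 2 residual degrees of freedom, on a prior spread from all genes worth 2.98 more, and on the assumption that the single cerebellum varies like the tumours. The SE of a gene with close tumours thus reflects other genes too. Lss had an SD of 0.03 over the tumours and an SE of 0.16. With the PtchLacZ/+ tumour left out, 5 of the 7 lay inside a 2-fold change, with Hmgcs1 and Sqle outside. With the younger SmoM2 tumour left out 6 did, with Hmgcs1 outside, and with the older one left out 6 did, with Sqle outside.

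**Figure D2:**
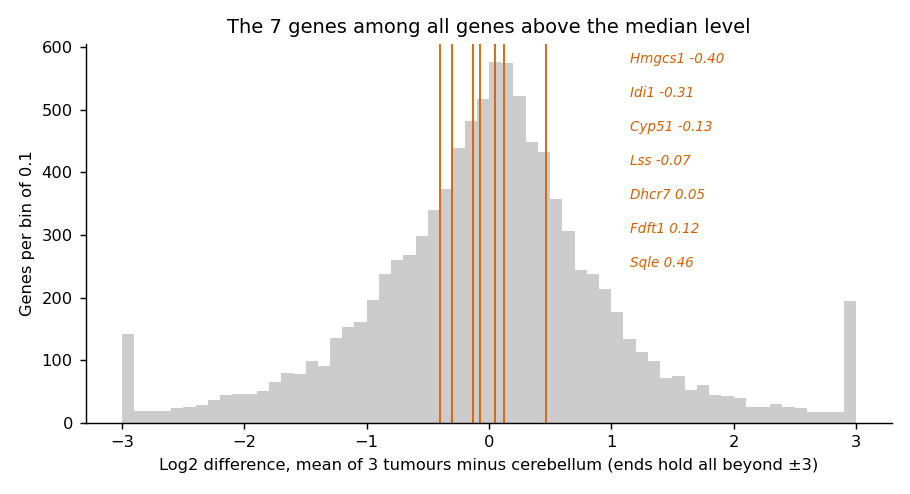
Histogram of the log2 difference between the mean of the 3 tumours and the cerebellum (horizontal axis) for the genes above the median level, in bins of 0.1 (vertical axis, number of genes), with a line for each of the 7 genes. The 7 lines fall between -0.40 (Hmgcs1) and 0.46 (Sqle), in the middle of the distribution.

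The tumours were also compared with each other. In PtchLacZ/+ against SmoM2, none of the 7 genes passed, and 0.00% of all genes did (limma, 1 residual degree of freedom). Unadjusted, none of the 7 and 1.40% of all genes had a p under 0.05. Sqle had the largest of the 7 differences, -0.34 ± 0.28 (95% interval -1.08 to 0.40), followed by Idi1 (-0.16 ± 0.28), and the other 5 lay between -0.12 and 0.03. Each of the 7 intervals held 0 and reached at least 0.69 log2 units from it on 1 side. With no gene of any size of difference passing, this comparison does not show that the 7 genes were alike in the tumours. Genotype and age cannot be told apart here. Between the SmoM2 tumours, with 1 array each and no test, Sqle was higher by 0.32 at 1 month than at 2 months and Idi1 differed by -0.30. None of the 7 genes differed by 1 log2 unit or more, as 3.71% of all genes did.

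The other enzymes of the pathway lay farther from the cerebellum at the median, as a description with no test. A list of 21 synthesis genes held 18 that were measured, and of the 11 that are not among the 7, 1 rose, 2 fell and 8 did not pass. Shares over all genes were 6.70% higher and 9.30% lower. The median size of the difference was 0.59 for these 11 genes, beside 0.13 for the 7 and 0.54 over the genes above the median level. The 7 were chosen with earlier results of these data known, so no trait of theirs is read from this contrast. Pmvk, the phosphomevalonate kinase gene, was at 7.98 in the cerebellum, 7.02 in the younger and 7.08 in the older SmoM2 tumour, and 7.06 in the PtchLacZ/+ one. It fell by 0.93 ± 0.16 (adjusted p = 0.0236). Sc5d, the sterol desaturase gene of the step before Dhcr7, was at 9.58 in the cerebellum and at 8.69, 8.53 and 8.53 in the tumours, and fell by 1.00 ± 0.18 (adjusted p = 0.0238). Both enzymes were lower in every tumour by about the same amount, next to steps whose genes did not pass. They missed the threshold without the younger SmoM2 tumour (adjusted p = 0.0769 for Pmvk and 0.0558 for Sc5d) and without the PtchLacZ/+ tumour (adjusted p = 0.110 and 0.107).

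Lbr was the synthesis gene that rose. It encodes the lamin B receptor, a protein of the inner nuclear membrane that holds chromatin at the lamina and also has sterol reductase activity, the same reaction that Tm7sf2 carries out. Its level was 8.79 in the cerebellum, 10.23 in the younger and 10.70 in the older SmoM2 tumour, and 10.58 in the PtchLacZ/+ one, a rise of 1.71 ± 0.24 or 3.27-fold (adjusted p = 0.0136). Tm7sf2 was at 8.20 in the cerebellum and 7.81, 7.39 and 7.68 in the tumours in that order, a difference of -0.58 ± 0.23 that did not pass (adjusted p = 0.172). The pair that share a step thus lay on opposite sides of the cerebellum in all 3 tumours.

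Msmo1, the sterol methyl oxidase gene that acts after Cyp51, was at 10.65 in the cerebellum, 9.64 in the younger and 9.96 in the older SmoM2 tumour, and 9.40 in the PtchLacZ/+ one. Its difference of -0.98 ± 0.26 did not pass (adjusted p = 0.0715) but did without the older SmoM2 tumour (adjusted p = 0.00715). Of the others, Hsd17b7 differed by 0.59 ± 0.18 (adjusted p = 0.0973), and Fdps, which makes the farnesyl chain that Fdft1 joins, by 0.62 ± 0.25 (adjusted p = 0.190). Mvd (0.34 ± 0.25), Nsdhl (0.22 ± 0.30), Mvk (-0.02 ± 0.26) and Ebp (-0.42 ± 0.24) did not pass either, with adjusted p = 0.344 to 0.976, and the sign for Mvk turned without the PtchLacZ/+ or the younger SmoM2 tumour. Ebp passed without the older SmoM2 tumour (-0.56, adjusted p = 0.0417).

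**Figure D3:**
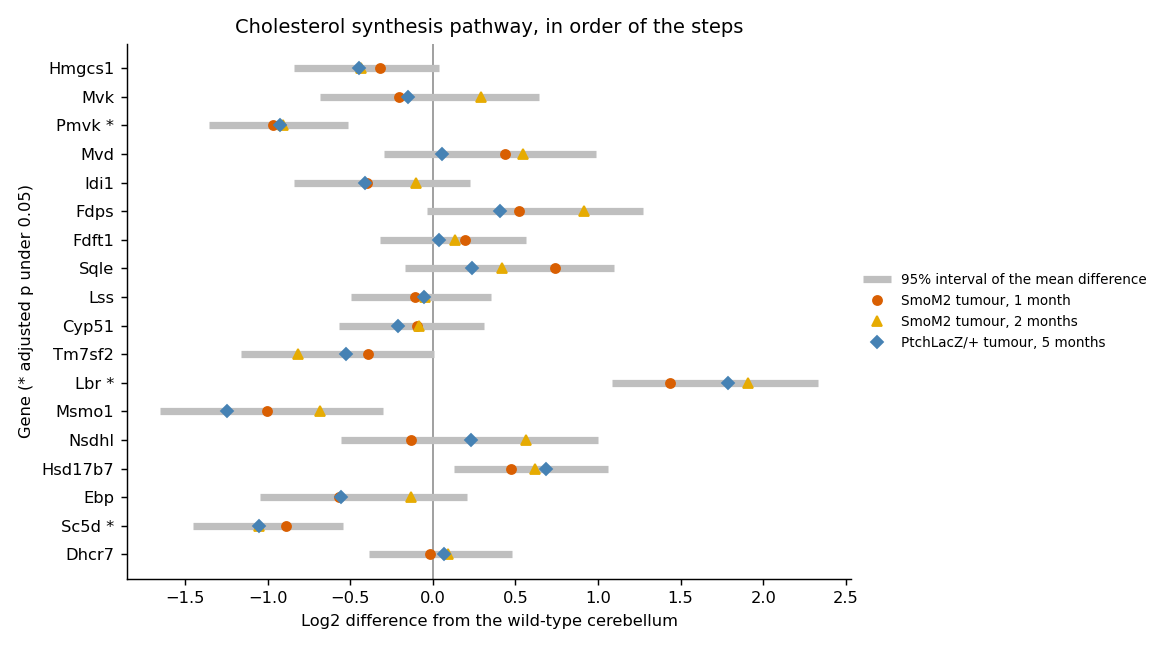
Log2 difference of each tumour from the cerebellum (horizontal axis, 1 point a tumour) for the 18 measured synthesis genes in the order of the steps (vertical axis), with grey bars for limma's 95% interval of the mean difference and asterisks for an adjusted p under 0.05. Pmvk and Sc5d lie near -1 and Lbr near 1.7 in all tumours, while Lss, Cyp51, Fdft1 and Dhcr7 lie near 0.

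Of the genes that control the pathway, Srebf1 rose and Insig2 fell, while Srebf2 and Scap lay close to the cerebellum. Srebf1, which encodes SREBP-1, was at 8.17 in the cerebellum, 10.57 in the younger and 10.68 in the older SmoM2 tumour, and 10.94 in the PtchLacZ/+ one. All 3 tumours were far above the cerebellum, and Srebf1 rose by 2.56 ± 0.21, or 5.91-fold with a 95% interval of 4.04 to 8.65 (adjusted p = 0.00488). The array reads its transcript and not the cleaved factor. Srebf2, whose product is the SREBP tied most closely to cholesterol synthesis, was at 9.36 in the cerebellum and 9.55, 9.42 and 9.46 in the tumours in that order, a difference of 0.11 ± 0.17 (adjusted p = 0.752). Scap, the escort protein gene, differed by -0.13 ± 0.23 (adjusted p = 0.779).

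Both Insig genes, whose products retain SREBP in the endoplasmic reticulum, were lower in every tumour. Insig2 was at 10.01 in the cerebellum, 8.50 in the younger and 8.57 in the older SmoM2 tumour, and 8.52 in the PtchLacZ/+ one, and fell by 1.48 ± 0.17 (adjusted p = 0.00795). Insig1, itself a target of SREBP, was at 10.46 in the cerebellum and 9.65, 9.81 and 9.56 in the tumours. Its difference of -0.79 ± 0.19 missed the threshold (adjusted p = 0.0510), and passed with the arrays centred on named genes (adjusted p = 0.0380) and without the older SmoM2 tumour (adjusted p = 0.0112). In the whole list of 11 control genes 8 were measured, of which 1 rose (Srebf1), 1 fell (Insig2) and 6 did not pass. Their median difference was -0.38, and over all genes 6.70% rose and 9.30% fell.

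Of 10 fatty acid synthesis genes, which SREBP-1 is known to drive, 4 fell, none rose and 6 did not pass. Their median difference was -0.45, and over all genes 9.30% fell and 6.70% rose. The stearoyl-CoA desaturase gene Scd1 was at 10.47 in the cerebellum, 8.20 in the younger and 8.21 in the older SmoM2 tumour, and 7.16 in the PtchLacZ/+ one, and fell by 2.61 ± 0.47 (adjusted p = 0.0249). Scd2, its paralogue of the brain, fell by 1.23 ± 0.24, the desaturase gene Fads1 fell by 0.98 ± 0.18 and Acss2, which makes acetyl-CoA from acetate, fell by 1.34 ± 0.31 (adjusted p = 0.0323, 0.0261 and 0.0498). Scd2, Fads1 and Acss2 missed the threshold without the younger SmoM2 tumour (adjusted p = 0.0506, 0.0724 and 0.0945) and without the PtchLacZ/+ tumour (adjusted p = 0.0800, 0.114 and 0.103). Acss2 also missed it after quantile normalization (adjusted p = 0.0509) and with the other rules for genes with several probe sets (adjusted p = 0.0503 and 0.0515). Acly, Acaca and Fasn, the enzymes of the first steps, were above the cerebellum in all 3 tumours by means of 0.70, 0.82 and 0.63, and did not pass (adjusted p = 0.0709, 0.192 and 0.203).

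**Figure D4:**
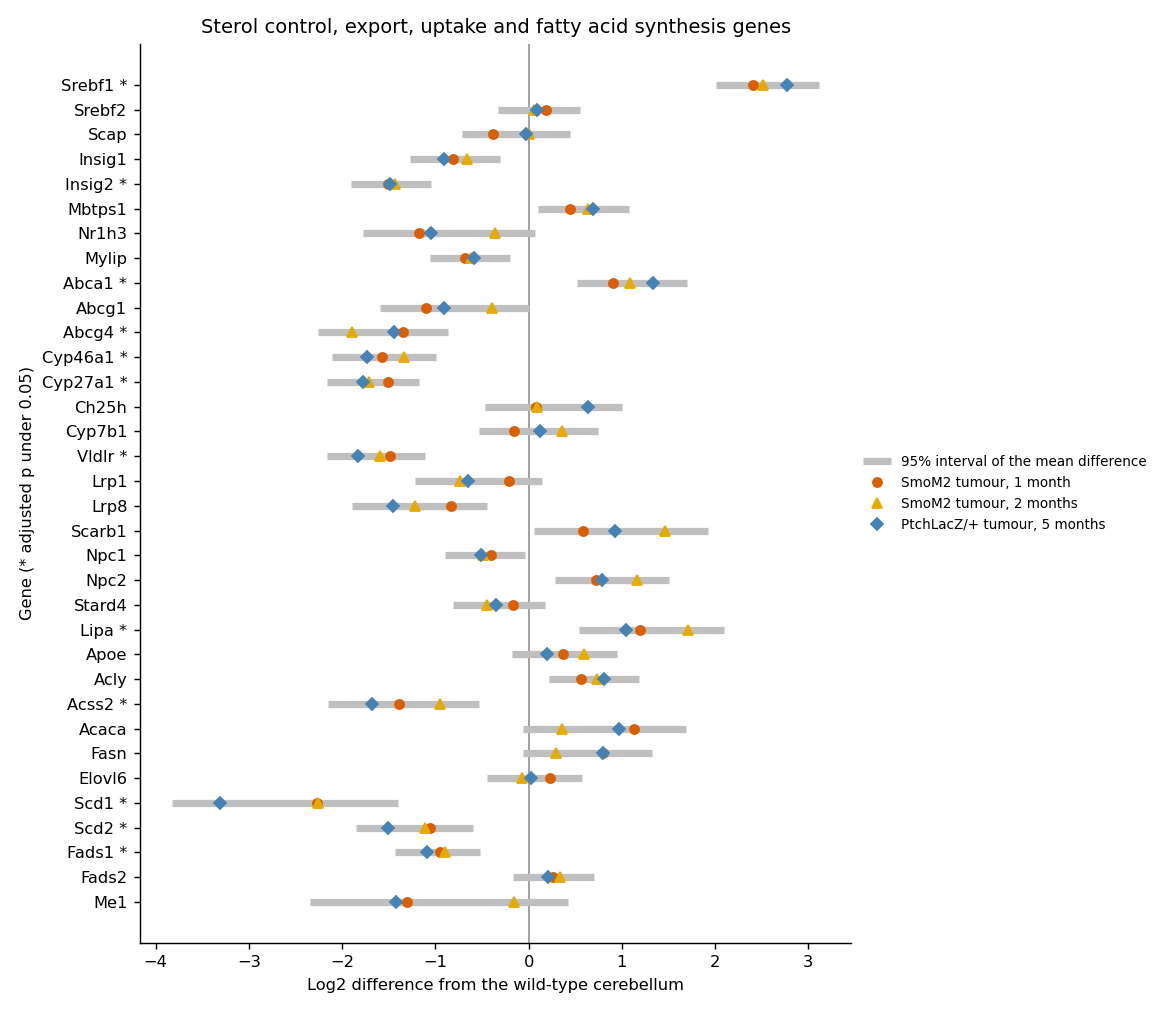
Log2 difference of each tumour from the cerebellum (horizontal axis, 1 point a tumour) for genes of sterol control, export and turnover, uptake and transport, and fatty acid synthesis (vertical axis, in that order from the top), with grey bars for limma's 95% interval and asterisks for an adjusted p under 0.05. Srebf1 is the highest and Scd1 the lowest of these genes, and Srebf2 lies near 0.

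Of 7 measured genes of cholesterol export and turnover, 1 rose, 3 fell and 3 did not pass. Their median difference was -0.80, and over all genes 6.70% rose and 9.30% fell. The exporter gene Abca1, induced by sterols through the LXR receptors, rose by 1.11 ± 0.23 (adjusted p = 0.0352), and missed the threshold without the PtchLacZ/+ tumour (adjusted p = 0.104). The transporter gene Abcg4 fell by 1.56 ± 0.27 (adjusted p = 0.0226) and missed it without the PtchLacZ/+ tumour (adjusted p = 0.0597). Cyp46a1, the neuronal enzyme through which the brain clears cholesterol, fell by 1.55 ± 0.22 (adjusted p = 0.0132), and the sterol hydroxylase gene Cyp27a1 fell by 1.67 ± 0.19 (adjusted p = 0.00862).

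Of 9 measured genes of uptake and transport, 1 rose, 1 fell and 7 did not pass. Their median difference was -0.32, and over all genes 6.70% rose and 9.30% fell. The lipoprotein receptor gene Vldlr fell by 1.64 ± 0.21 (adjusted p = 0.0103). The lysosomal lipase gene Lipa, whose product frees cholesterol from its esters, rose by 1.31 ± 0.30 (adjusted p = 0.0478) and missed the threshold without the younger SmoM2 tumour (adjusted p = 0.0750) and without the PtchLacZ/+ tumour (adjusted p = 0.0725). Of 6 measured genes on other branches of the mevalonate pathway none passed in limma's test, 3 having an unadjusted p under 0.05, and all were below the cerebellum in all 3 tumours, with a median difference of -0.47. The largest differences were those of Fnta (-0.63 ± 0.23, adjusted p = 0.156) and Ggps1 (-0.51 ± 0.17, adjusted p = 0.116), genes of protein prenylation. Both passed without the older SmoM2 tumour (adjusted p = 0.0164 and 0.0485).

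Over the 6 pathway lists together, 4 genes rose and 11 fell of 58 measured, none of them among the 7. Of the 9969 genes above the median level, 1202 rose and 1283 fell. The share that passed in either direction was similar, and nothing particular to the pathway is read from it. The pathway genes leaned lower, with a median difference of -0.29 beside 0.04 over the genes above the median level. Every tumour was below the cerebellum for 33 of the 58 and above it for 19, against 3717 and 3994 of the 9969. This lean was not tested. The count of 15 was 30 without the older SmoM2 tumour, 10 without the younger SmoM2 tumour and 7 without the PtchLacZ/+ tumour. Over all genes the count moved in the same order, from 3191 to 6010, 2284 and 1565 of 19938, so the swing is not read as particular to the pathway. The 7 genes were at 0 calls each time.

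Cell type markers differed strongly between the same arrays, where 6.70% of all genes rose and 9.30% fell. Of 10 oligodendrocyte markers 9 fell, with a mean log2 level of 9.07 in the cerebellum and 6.15 to 6.91 in the tumours (Ermn -3.35 ± 0.35, Mag -3.28 ± 0.68). Of 12 astrocyte markers 7 fell, with a mean level of 10.27 against 8.39 to 9.14 (Gja1 -3.05 ± 0.64, Aldoc -2.84 ± 0.58). The list did not move as one, since Gfap (1.17 ± 0.46, adjusted p = 0.173) and Sox9 (0.83 ± 0.20, adjusted p = 0.0510), both named after their values were seen, were above the cerebellum in all 3 tumours and did not pass. Of 12 markers of mature neurons 9 fell (mean 11.49 against 6.89 to 8.23), while Gabra6 and Calb1, with the largest differences of that list (-5.57 ± 1.31 and -5.11 ± 1.51), did not pass (adjusted p = 0.0509 and 0.0905), but both passed with the older SmoM2 or the PtchLacZ/+ tumour left out. Of 10 markers of granule neuron progenitors 7 rose (mean 7.76 against 10.55 to 11.19, Atoh1 6.88 ± 0.28, Nhlh1 5.75 ± 0.34). In this list 8 lay above the cerebellum in all 3 tumours. Zic1 (-0.17 ± 0.33) and Pax6 (0.29 ± 0.46), named after their values were seen, had the cerebellum within the tumours. All 11 measured mitosis genes rose (mean 5.19 against 9.74 to 9.95, Ccna2 6.34 ± 0.19, Top2a 5.78 ± 0.19, or 0.46 and not passing with its dimmest probe set). Of 11 microglia markers 6 rose (mean 6.59 against 8.13 to 8.52, Lyz2 5.21 ± 0.48, Cd68 3.17 ± 0.30). In that list 9 lay above the cerebellum in all 3 tumours. P2ry12 (0.07 ± 0.20) and Tmem119 (-0.09 ± 0.25), also named after their values were seen, had the cerebellum within the tumours. Most but not all of these markers thus separated the tumours from the cerebellum. Atoh1, Nhlh1 and Ccna2 in the cerebellum lay below the lower quartile of that array's levels (5.09). Ermn, Gabra6 and Calb1 did so in the PtchLacZ/+ tumour (5.14). These genes were not shown to exceed background there, so their differences are lower limits. Other markers lay as low, such as Bub1 (4.47), Kif11 (4.89) and Cenpe (4.31) in the cerebellum. Opalin (4.07) and Aspa (4.34) did in the PtchLacZ/+ tumour, so the list means hold such values too. The part that these cell types had in the levels of the cholesterol genes was not tested.

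The genes most like the mean pattern of the 7 were sought among the other 9962 genes above the median level. The measure was the root mean square difference over the 4 arrays between each gene's centred log2 values and the mean of the centred values of the 7. The closest were Btbd1 (0.011), Mast3 (0.019), Csnk1a1 (0.020), Rbbp5 (0.023), Gpat4 (0.023), Canx (0.026), Wrap73 (0.027), Psmd14 (0.028), Zfp30 (0.028) and Ubxn4 (0.030). In all, 471 genes lay within 0.1. The mean pattern is nearly flat, at 0.03 in the cerebellum and in each SmoM2 tumour and -0.08 in the PtchLacZ/+ tumour. Of the 7 genes themselves Cyp51 was the closest to it (0.041) and Sqle the farthest (0.263). The genes named above were all closer to this mean than any of the 7, so they are like a flat line rather than like each member.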

How the data were processed

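The log2 expression values of 4 Affymetrix Mouse Gene 1.0 ST arrays were deposited by the authors as 1 table of 35557 probe sets. The submitters' processing notes name Affymetrix Expression Console. Its version, summarisation and normalization were not given in the sources used here. That the scale is log2 follows from the range, 2.71 to 14.9. Values were used as deposited, without a filter or detection calls. The number of arrays limits the precision.

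The platform annotation gave a single symbol to 21789 probe sets, several to 1621 and none to 12147. Of the 19938 genes, 999 had several probe sets, and the one with the highest mean was used. RefSeq genes, used for chromosomes, matched 21698 probe sets. Promoter windows (RefSeq, GRCm38.p6) matched 5 of the 7 genes by symbol, with no entry for Fdft1 and Sqle.

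Differences were tested with limma 3.58.1 in R 4.3.3 (lmFit and eBayes, all genes, Benjamini-Hochberg), with code tested on simulated data. A group of 1 array was taken to vary as the other group did. Alternatives were quantile normalization, centring, other probe set rules, a level filter, a trended prior variance and leaving out each tumour. The 7 genes and the lists were chosen with earlier results of these data known. Named were all measured synthesis genes, 5 regulators, in other pathway lists every gene past the threshold and the 2 with the largest difference, 2 per marker list, and the 10 of most similar pattern. Acly, Acaca, Fasn, Gfap, Sox9, Zic1, Pax6, P2ry12 and Tmem119 were named after their values were seen.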

Additional observations from a re-analysis of the deposited data

How the results depend on the processing

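No alternative brought any of the 7 genes past the threshold in either test or past the fold between the SmoM2 tumours. The test of PtchLacZ/+ against SmoM2 rests on 1 residual degree of freedom and does not show that they were alike. Each of the 7 kept the sign of its difference from the cerebellum in the 9 settings tried. Hmgcs1 ranged from -0.44 to -0.35, Idi1 from -0.41 to -0.24 and Sqle from 0.33 to 0.58, with lowest adjusted p = 0.136, 0.106 and 0.199 (limma). The count of pathway genes past the threshold, 15, ran from 7 to 30 when 1 tumour was left out, and from 14 to 16 otherwise. Over all genes the count, 3191, ran from 1565 to 6010 when 1 tumour was left out. Among the 47 genes named by rule, Mvk (-0.02) changed sign, its difference running from -0.18 to 0.070 when 1 tumour was left out. Top2a missed the threshold with its lowest probe set (0.46, adjusted p = 0.318), a rule added after seeing the data. No paired analysis was possible because the labels give no replicate numbers and the cerebellum and the PtchLacZ/+ tumour are single arrays. With these 4 arrays, the smallest size of a called difference was 0.70 on the log2 scale. Each of the 7 genes lay below that size, so a lack of calls does not show that they were unchanged.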
